A study of Mus musculus with 24 samples.

Results

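The genes described here are 10 sarcomere and Z-disc genes of slow muscle fibres: Myh7, Myl2, Myl3, Tnnt1, Tnni1, Tnnc1, Tpm3, Myoz2, Csrp3 and Ankrd2. They were chosen by name among the 24062 genes of 2 count tables, and all 10 were present in both tables and passed the filter on low counts. The tables hold 24 libraries of polyA RNA from the quadriceps of C57BL/6 mice in 9 groups. WT mice carried an intact Dmd gene, which encodes dystrophin. The delEx44 mice model Duchenne muscular dystrophy through the loss of exon 44 of Dmd. Corrected mice had the same deletion and received AAV9 vectors by intraperitoneal injection on postnatal day 4, of which the guide vector carried an sgRNA and the other SpCas9. At 4 weeks, each genotype had 3 sedentary libraries. At 8 weeks, each genotype had 2 libraries from mice run downhill every other day for 1 month, at a decline of 15 degrees and 12 m per min. At 18 months, each genotype had 3 sedentary libraries. The corrected mice of both young stages received 8e+13 vector genomes per kg of each vector, the guide vector being self-complementary. Those of 18 months received 2.5e+14 of a single-stranded guide vector and 5e+13 of the Cas9 vector. Running and the age difference between 4 and 8 weeks cannot be told apart, nor can age, vector, dose and table at 18 months.

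Slow, or type I, fibres contract slowly and resist fatigue, and they build their sarcomere from a set of proteins of their own. Myh7 encodes the slow myosin motor, Myl2 and Myl3 its light chains, and Tnnt1, Tnni1 and Tnnc1 the slow forms of the troponin complex that makes the thin filament respond to calcium. Tpm3 encodes the tropomyosin of slow fibres and also non-muscle tropomyosins. Myoz2, Csrp3 and Ankrd2 encode proteins of the Z-disc and its surroundings that are linked to calcineurin signalling and to stretch. The mouse quadriceps is made mainly of fast fibres, with slow fibres gathered in its deep part. Developing and regenerating fibres are known to use several slow forms as well, Tnni1 among them.

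Promoters are shown for 4 genes whose values take different courses below: Myh7 and Myl3 of the thick filament, and the troponin genes Tnnc1 and Tnni1. The windows come from RefSeq on the mouse build GRCm38.p6 and run 5′ to 3′ along the gene's strand. Each begins 250 bases before the gene's most upstream RefSeq start and ends at the last base outside any annotated exon of the GENCODE annotation. The Myh7 window is chr14:54994627-54994876 on the minus strand, just upstream of the gene body at chr14:54970684-54994626. The Myl3 window is chr9:110763428-110763645 on the plus strand, and the Tnni1 window is chr1:135799171-135799401 on the plus strand. Both lie within the longer span that the gene has in the GENCODE annotation, outside its exons. The Tnnc1 window is chr14:31208062-31208311 on the plus strand, just upstream of the gene body. Capitals mark the M-CAT box CATTCC on either strand and, in Myl3, a CArG box.
Myh7 promoter window: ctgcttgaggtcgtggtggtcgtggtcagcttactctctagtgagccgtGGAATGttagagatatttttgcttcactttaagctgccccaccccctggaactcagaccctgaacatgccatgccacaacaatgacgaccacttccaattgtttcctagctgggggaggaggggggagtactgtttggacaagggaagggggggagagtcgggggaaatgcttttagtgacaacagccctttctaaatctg
Myl3 promoter window: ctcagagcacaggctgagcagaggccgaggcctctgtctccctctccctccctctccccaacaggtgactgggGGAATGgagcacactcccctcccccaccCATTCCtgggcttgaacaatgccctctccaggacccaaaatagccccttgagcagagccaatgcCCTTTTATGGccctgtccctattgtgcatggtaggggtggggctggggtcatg
Tnnc1 promoter window: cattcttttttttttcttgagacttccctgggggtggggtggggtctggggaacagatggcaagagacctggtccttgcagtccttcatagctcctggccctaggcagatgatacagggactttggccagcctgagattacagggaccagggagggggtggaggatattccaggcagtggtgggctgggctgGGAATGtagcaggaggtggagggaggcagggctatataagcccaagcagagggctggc
Tnni1 promoter window: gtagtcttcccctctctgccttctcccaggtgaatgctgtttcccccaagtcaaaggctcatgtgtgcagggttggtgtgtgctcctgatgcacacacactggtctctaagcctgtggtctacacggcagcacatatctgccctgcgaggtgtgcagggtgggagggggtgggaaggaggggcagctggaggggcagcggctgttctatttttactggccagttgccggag
Motifs were searched in the whole 250 bases before the most upstream RefSeq start of each gene, and before no other start. For some genes these bases reach past the exon-free stretch into an annotated exon. The M-CAT box, bound by TEAD factors, was found in 3 of the 10 genes (Myh7, Myl3 and Tnnc1) and in 12.64% of the 27025 genes with such a stretch. The E-box CANNTG, searched on both strands like every motif here, was found in 10 of 10 and in 66.05% of all. A CArG box was found in Myl3 alone of the 10 (1.406% of all), and a MEF2 element in Myoz2 alone (1.747%). The TATA box letters TATAAA were found in Tnnt1 and Ankrd2 (12.98% of all). Both TATAAA matches and the MEF2 element run past the exon-free stretch of their genes, and both E-boxes of Myoz2 lie wholly past it. For Myl2 the bases searched, chr5:122092474-122092723, lie well upstream of the gene body at chr5:122100951-122113472. The bases just before that body were therefore not searched for Myl2. These matches describe letters only and were not tested as binding sites.

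Counts falling in genes ranged from 30552867 to 38090522 per library in the table of the 4-week and run libraries, and from 23125930 to 31254175 in the 18-month table. Levels below are in CPM, the counts of a gene relative to the size of its library as scaled by TMM within each table, so a level at 18 months is scaled apart from one at 4 or 8 weeks. Dmd, the gene deleted in part, was at 148.2 to 425.2 CPM in the WT libraries, 36.12 to 86.67 CPM in delEx44 and 88.77 to 304 CPM in corrected muscle. At each stage the delEx44 libraries had the lowest and the WT libraries the highest Dmd levels, without overlap between these 2 genotypes. Counts over the whole gene do not test the deleted exon itself. Differences between groups are log2 fold changes with their standard error (SE) from edgeR's quasi-likelihood test, and a gene was called where its p-value, adjusted by Benjamini-Hochberg over all genes tested, was under 0.05. The labels do not say which libraries share an animal or litter, so p-values measure the spread between libraries.

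For the 10 genes, 2 libraries stood apart from the other replicates of their groups. The labels do not say which portion of the quadriceps any library was taken from. In WT replicate 3 at 4 weeks the summed level of the 10 genes was 183.7 CPM, against 737.2 and 568.9 CPM in the other WT libraries. In corrected replicate 1 at 18 months it was 114.1 CPM, against 1848 and 595.9 CPM. Their counts in genes, 36687148 and 27699326, lay within the range of the other libraries. For 18 genes found in all fibres, the summed level in WT replicate 3 at 4 weeks was 106900 CPM, within the WT range of 101100 to 115400 CPM. In corrected replicate 1 at 18 months it was 68900 CPM, between 66960 and 72150 CPM in the other corrected libraries. WT replicate 3 at 4 weeks was also the highest of its group for tendon markers (1267 CPM, against 981.2 and 839.4), adipocyte markers (732.9 CPM, against 361 and 370) and erythroid markers (48.52 CPM, against 3.527 and 6.896). Corrected replicate 1 at 18 months lay between the others of its group for macrophage markers, at 500 CPM against 229.3 and 829.8 CPM, and was the highest of the 3 for regenerating fibre markers, at 310.2 CPM. The part of these markers in the low slow gene levels was not tested. Cardiac markers, which include genes of heart muscle that shares Myh7, Myl2 and Myl3, summed to at most 9.745 CPM in every group, with 2 to 6 of 9 at 0. In whole muscle, fewer slow fibres and less RNA per slow fibre cannot be told apart.

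Myh7, the slow myosin heavy chain, was measured at 116, 64.5 and 10.9 CPM in the WT libraries at 4 weeks, 31.4, 32.9 and 28.0 CPM in delEx44 and 56.2, 44.4 and 134 CPM in corrected muscle. The corrected libraries all lay above the delEx44 libraries, and the WT libraries spanned both. After running at 8 weeks the levels were 335 and 267 CPM in WT, 191 and 92.3 CPM in delEx44 and 139 and 187 CPM in corrected muscle, so each WT library was above the other libraries of that stage. At 18 months they were 214, 203 and 168 CPM in WT and 212, 179.9 and 176 CPM in delEx44, with the groups overlapping. The corrected libraries of 18 months were far apart, at 0.811 CPM (21 counts), 406 and 60.1 CPM, and held both the lowest and the highest Myh7 level of that stage. Reads of Myh7 and of its neighbour Myh6, the near-identical cardiac heavy chain, may be split between the genes, so both levels are uncertain, with Myh6 at no more than 6.187 CPM in any library.

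The slow myosin light chains followed Myh7 from library to library. Myl2, the regulatory light chain, was at 67.5, 45.2 and 5.89 CPM in WT, 19.7, 19.9 and 18.8 CPM in delEx44 and 38.5, 26.1 and 67.3 CPM in corrected muscle at 4 weeks. The run libraries had 166 and 130.3 CPM in WT, 92.3 and 36.96 CPM in delEx44 and 101 and 121 CPM in corrected muscle. At both young stages the corrected libraries lay above the delEx44 libraries, and at 4 weeks the low WT library was below them all. Myl2 at 18 months was 139.5, 146.5 and 135 CPM in WT, 189, 138 and 153 CPM in delEx44 and 1.89 (49 counts), 235 and 67.3 CPM in corrected muscle.

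Myl3, the slow essential light chain, was at 73.8, 64.7 and 5.33 CPM in WT, 19.7, 13.2 and 17.3 CPM in delEx44 and 44.8, 28.7 and 68.7 CPM in corrected muscle at 4 weeks. The run libraries had 199.9 and 208 CPM in WT, 119 and 58.4 CPM in delEx44 and 166 and 185 CPM in corrected muscle. This was an order of WT, corrected and delEx44 without overlap, with 2 libraries per group. Of all genes, 20.5% were lower in corrected than in WT run muscle without overlap, and 30.7% higher in corrected than in delEx44. At 18 months Myl3 was at 207.5, 199.9 and 187 CPM in WT and 114, 74.0 and 97.6 CPM in delEx44. Every delEx44 library of 18 months was thus below every WT library for Myl3, which did not hold for Myh7 or Myl2. Likewise, 29.8% of all genes were lower there without overlap. The corrected libraries of 18 months had 0.0772 CPM (2 counts), 254.5 and 57.2 CPM.

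**Figure D1:**
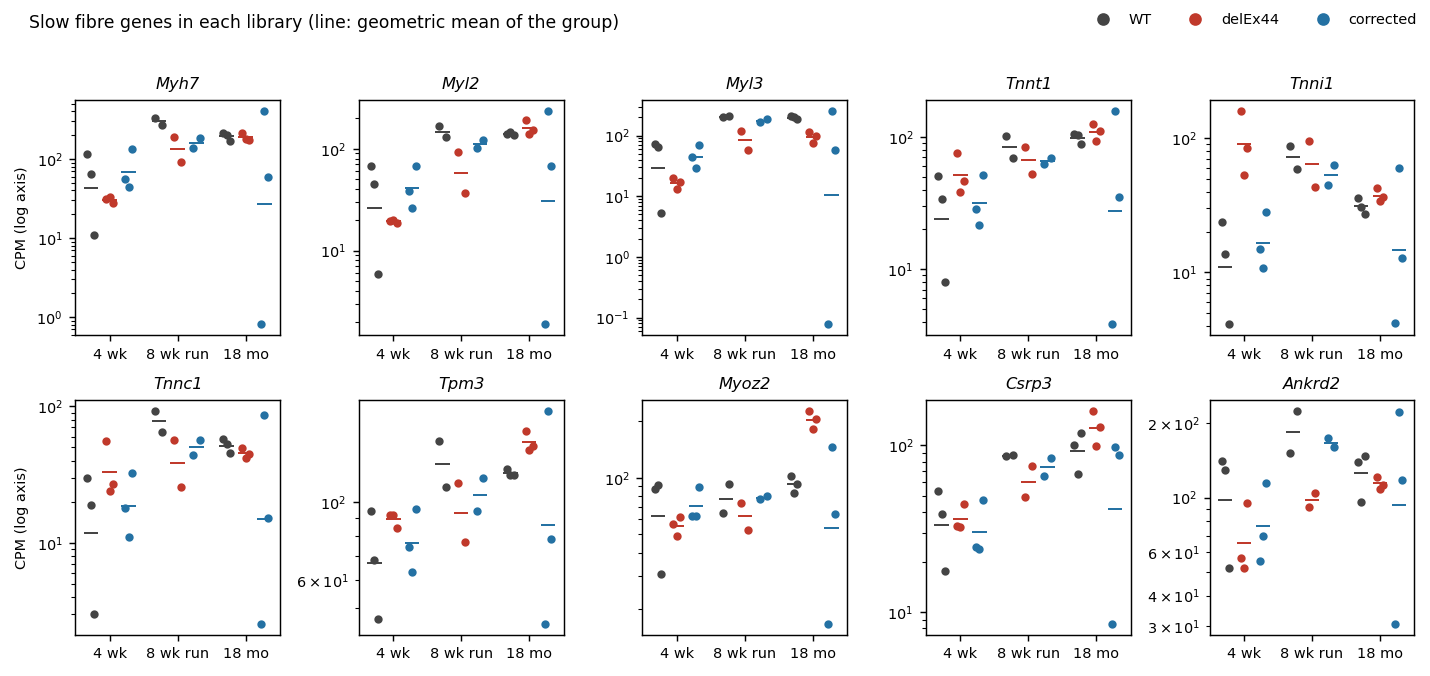
CPM on a log axis for each of the 10 slow fibre genes in each of the 24 libraries, by stage and genotype; each point is a library and each line the geometric mean of a group. Corrected replicate 1 at 18 months lies far below the other points for Myh7, Myl2 and Myl3, and the 3 delEx44 points at 4 weeks lie above the other 4-week points for Tnni1.

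Tnni1, the slow inhibitory troponin, took another course at 4 weeks. It was at 23.7, 13.7 and 4.11 CPM in WT, 159.6, 53.5 and 84.8 CPM in delEx44 and 15.0, 10.9 and 28.1 CPM in corrected muscle, so every delEx44 library was above every library of the other genotypes. Over all genes, 29.9% were likewise higher in delEx44 than in WT without overlap. Tnni1 was the only one of the 10 genes called between delEx44 and WT at 4 weeks, where 50.2% of all genes were called, with a log2 fold change of 2.85 ± 0.67 (SE) and an adjusted p of 0.00586 by edgeR's quasi-likelihood test. It was lower again in corrected than in delEx44 muscle, by a log2 fold change of -2.47 ± 0.66 (adjusted p = 0.0119), and did not pass between corrected and WT muscle (0.38 ± 0.66, adjusted p = 0.896). Both calls held under every alternative run, with adjusted p from 2.4e-05 to 0.0384 for delEx44 against WT and from 0.000342 to 0.0467 for corrected against delEx44. After running, Tnni1 was at 87.7 and 58.8 CPM in WT, 96.04 and 43.55 CPM in delEx44 and 44.8 and 62.6 CPM in corrected muscle, and the 3 groups overlapped. The difference between the stages in the delEx44 minus WT contrast was -2.92 ± 1.00 on the log2 scale, which did not pass (adjusted p = 0.178). At 18 months Tnni1 was at 35.6, 30.9 and 27.3 CPM in WT, 42.3, 33.9 and 36.3 CPM in delEx44 and 4.17, 59.5 and 12.7 CPM in corrected muscle, again with overlap.

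Markers of regenerating fibres differed between the same libraries as Tnni1. Myh3, the embryonic myosin heavy chain, was at 436, 169 and 189.7 CPM in the 3 delEx44 libraries at 4 weeks, in the order in which Tnni1 was at 159.6, 53.5 and 84.8 CPM, and at no more than 3.558 CPM in WT and 9.072 CPM in corrected muscle. Tnnt2, a troponin T of heart and developing muscle, was at 111, 45.2 and 54.4 CPM in delEx44 and at no more than 5.027 CPM in WT and 7.868 CPM in corrected muscle. Of the 8 regenerating fibre markers, 7 were called higher in delEx44 than in WT at 4 weeks, beside 25.2% of all genes, and 1 lower, the cardiac actin gene Actc1. Because of Actc1 the summed level of the 8 went the other way, at 3716 to 4226 CPM in delEx44 and 6597 to 7785 CPM in WT. Macrophage markers were also higher, with 7 of 7 called. Their summed levels were 2204, 1465 and 1552 CPM in the delEx44 libraries, again in the order of Tnni1, against 309.4 to 361.9 CPM in WT. An order shared over 3 libraries is a description only. The part of these cells in the Tnni1 difference was not tested.

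The other slow troponin genes overlapped between genotypes at 4 weeks. Tnnt1, slow troponin T, was at 50.2, 33.9 and 7.97 CPM in WT, 75.5, 38.4 and 46.3 CPM in delEx44 and 28.7, 21.5 and 52.0 CPM in corrected muscle at 4 weeks. Tnnc1, the troponin C that slow fibres share with the heart, was at 29.8, 18.9 and 3.01 CPM in WT, 56.1, 23.8 and 26.9 CPM in delEx44 and 17.9, 11.02 and 32.5 CPM in corrected muscle. In both genes delEx44 against WT gave log2 fold changes of 0.80 ± 0.58 (adjusted p = 0.275) and 1.05 ± 0.71 (adjusted p = 0.241). After running, Tnnt1 was at 102 and 69.3 CPM in WT, 84.05 and 52.6 CPM in delEx44 and 62.4 and 69.7 CPM in corrected muscle. Tnnc1 was at 92.9 and 65.2 CPM in WT, 56.8 and 25.8 CPM in delEx44 and 44.4 and 56.4 CPM in corrected muscle, with both WT libraries above the rest. At 18 months the WT and delEx44 libraries of Tnnt1 (88.0 to 105 CPM and 92.7 to 126 CPM) and of Tnnc1 (45.4 to 57.7 CPM and 42.2 to 49.7 CPM) overlapped, and corrected replicate 1 was at 3.82 CPM for Tnnt1 and 2.55 CPM for Tnnc1.

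**Figure D2:**
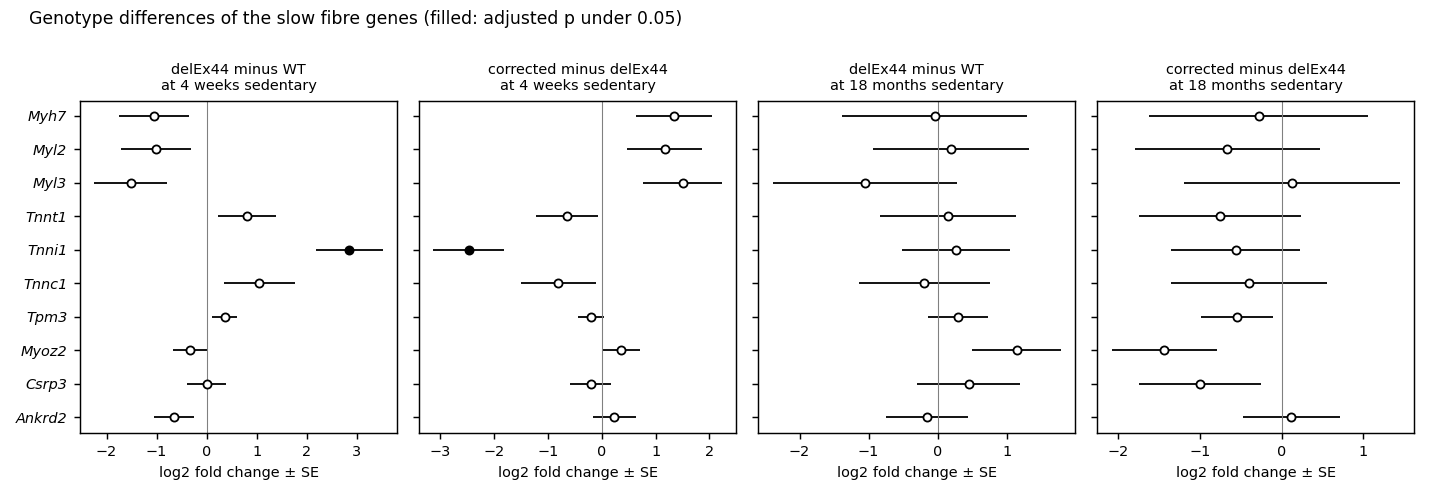
Log2 fold change with its SE for each of the 10 genes for delEx44 minus WT and corrected minus delEx44 at 4 weeks and at 18 months, filled where the adjusted p was under 0.05. Tnni1 at 4 weeks is the filled point of 2 panels, 2.85 for delEx44 against WT and -2.47 for corrected against delEx44.

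Tpm3, the slow tropomyosin gene, varied less than the rest, and reads of its slow and non-muscle transcripts cannot be separated in these counts. It was at 46.4 to 94.3 CPM in WT, 84.3 to 92.0 CPM in delEx44 and 63.1 to 95.3 CPM in corrected muscle at 4 weeks. The run libraries had 149 and 110.1 CPM in WT, 113 and 77.1 CPM in delEx44 and 94.1 and 117 CPM in corrected muscle. The genotypes overlapped at both young stages. At 18 months, 124, 119 and 119 CPM in WT lay below 159, 141 and 144 CPM in delEx44, and the corrected libraries had 45.0, 181.5 and 78.3 CPM.

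Myoz2, calsarcin-1, a Z-disc protein that binds calcineurin, was at 87.7, 92.1 and 30.7 CPM in WT, 56.5, 48.8 and 61.8 CPM in delEx44 and 62.6, 62.9 and 89.5 CPM in corrected muscle at 4 weeks. After running the 3 genotypes ranged from 53.0 to 92.7 CPM. At 18 months Myoz2 was at 102.5, 83.5 and 92.5 CPM in WT, 228, 181 and 205 CPM in delEx44 and 16.6, 146 and 64.4 CPM in corrected muscle. Every delEx44 library of 18 months was above every other library of that stage for Myoz2. Of all genes, 36.3% were higher in delEx44 than in WT there without overlap. The log2 fold changes were 1.14 ± 0.64 for delEx44 against WT (adjusted p = 0.174) and -1.44 ± 0.65 for corrected against delEx44 (adjusted p = 0.12), and neither passed. Without overlap, 28.4% of all genes were lower in corrected than in delEx44 muscle at 18 months, and Myoz2 and Csrp3 were the 2 of the 10 that were.

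Csrp3, the muscle LIM protein, was at 17.6 to 53.6 CPM in WT, 32.4 to 44.3 CPM in delEx44 and 23.9 to 46.9 CPM in corrected muscle at 4 weeks, with overlap among all 3. It was at 86.0 and 87.4 CPM in WT, 49.0 and 75.4 CPM in delEx44 and 65.4 and 84.0 CPM in corrected muscle after running, and at 67.2 to 119 CPM, 99.8 to 162 CPM and 8.50 to 98.6 CPM at 18 months. Ankrd2, a stretch-responsive ankyrin repeat protein, was at 51.8 to 140.2 CPM in WT, 51.9 to 95.2 CPM in delEx44 and 55.2 to 115 CPM in corrected muscle at 4 weeks. After running, both delEx44 libraries of Ankrd2, at 91.3 and 104 CPM, were below the WT libraries at 152 and 225 CPM and the corrected libraries at 174 and 160.2 CPM. At 18 months Ankrd2 ranged from 96.02 to 148 CPM in WT, from 108 to 122 CPM in delEx44 and from 30.7 to 223 CPM in corrected muscle. In corrected replicate 1 at 18 months, Ankrd2 kept 30.7 CPM (794 counts) and Tpm3 45.0 CPM (1165 counts), where Myl3 had 2 counts.

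Per kilobase of exon, the order of the 10 genes was much alike across groups at its ends. Ankrd2 was highest in all 9 groups, from 59.7 CPM per kb in delEx44 at 4 weeks to 165.5 CPM per kb in WT after running. Tnni1 was lowest in all WT and corrected groups and in delEx44 at 18 months, at 3.84 CPM per kb in WT at 4 weeks and 8.69 CPM per kb in WT at 18 months. The exceptions were both young delEx44 groups: at 4 weeks Tnni1 ranked behind only Ankrd2 and Tnnc1, at 27.6 CPM per kb, above Myh7 at 3.57 CPM per kb, and after running it was at 19.4 CPM per kb, above Myoz2, Myh7 and Tpm3.

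Of the 15013 genes tested at 4 weeks, 25.2% were called higher and 25% lower in delEx44 than in WT, and 46.3% were called between corrected and delEx44, 24.2% as lower. Of the 10 slow genes 1 was called in each, Tnni1, a smaller share than over all genes, and 1 had an unadjusted p under 0.05 in each. Their median log2 fold change was -0.17 for delEx44 against WT, beside -0.00 over all genes tested, and 0.02 for corrected against delEx44, beside -0.01. The median SE of the 10 genes was 0.625 and 0.616 in these comparisons, against 0.117 over all genes in both. Myh7 gave -1.05 ± 0.70 (adjusted p = 0.239) and Myl3 -1.52 ± 0.73 (adjusted p = 0.11) for delEx44 against WT. For corrected against delEx44 they gave 1.34 ± 0.71 (adjusted p = 0.149) and 1.501 ± 0.73 (adjusted p = 0.12). The libraries of corrected and delEx44 muscle did not overlap, with corrected higher, for Myh7, Myl2, Myl3 and Myoz2, and, with corrected lower, for Tnni1. Over all genes 28.3% were without overlap and higher and 30.4% without overlap and lower. Between corrected and WT muscle edgeR called 0 of the 15013 genes (0%). DESeq2 called 220 genes there, 1.63% of those it tested, and 0 of the 10 were called by either tool, with 0 at an unadjusted p under 0.05.

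Without WT replicate 3, 6 of the 10 genes were called between delEx44 and WT at 4 weeks, with 48.5% of all genes called in that fit. Myh7 (-1.56 ± 0.49, adjusted p = 0.026), Myl2 (-1.53 ± 0.44, adjusted p = 0.0173), Myl3 (-2.05 ± 0.37, adjusted p = 0.00153), Myoz2 (-0.69 ± 0.20, adjusted p = 0.0148) and Ankrd2 (-0.99 ± 0.33, adjusted p = 0.0327) were lower in delEx44, and Tnni1 was higher (2.41 ± 0.63, adjusted p = 0.0127). Without WT replicate 1 instead, Tnni1 and Tpm3 were called, both higher, a count with no share of all genes beside it. The directions also depended on the scaling. Scaled to the 18 genes of all fibres, which were themselves lower in delEx44 (16 of 18 called), the median of all genes between delEx44 and WT at 4 weeks went from -0.004 to 0.828. On that scale 84.8% of all genes were called, Tnnt1, Tnni1, Tnnc1, Tpm3 and Csrp3 among them as higher in delEx44, and Myh7 was at -0.19 ± 0.71 (adjusted p = 0.807).

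After running, 0 of the 10 genes passed between any genotypes in edgeR, and 0 in DESeq2. The shares of all genes called were 29.1% for delEx44 against WT, 23.2% for corrected against delEx44 and 0.02% for corrected against WT. For delEx44 against WT all 10 estimates were below 0, with a median of -0.71 beside -0.01 over all genes, and 0 of them had an unadjusted p under 0.05. In 6 of them both delEx44 libraries were below both WT libraries (Myh7, Myl2, Myl3, Tnnc1, Csrp3 and Ankrd2), where 32.6% of all genes were without overlap and lower. Ankrd2 had the smallest p of these, at -0.95 ± 0.49 (adjusted p = 0.172), and was called lower in a fit of WT and delEx44 alone (-0.93, adjusted p = 0.04), where 16.2% of all genes were called. Corrected libraries lay above both delEx44 libraries for Myl2, Myl3, Myoz2 and Ankrd2, against 30.7% of all genes, and below both WT libraries for Myh7, Myl2, Myl3, Tnnc1 and Csrp3, against 20.5%.

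At 18 months, 0 of the 10 genes passed between any genotypes in edgeR's fit of all 9 libraries, with 0 at an unadjusted p under 0.05. Over all genes 52.7% were called for delEx44 against WT, 41% for corrected against delEx44 and 4.76% for corrected against WT. DESeq2 called 0 of the 10 in each as well. That fit shares its estimate of spread with the corrected group, whose Myh7 levels ranged from 0.811 to 406 CPM. In a fit of the WT and delEx44 libraries alone, which called 60.8% of all genes, 4 of the 10 passed. Myl3 fell in delEx44 by a log2 fold change of -1.09 ± 0.13 (adjusted p = 3.34e-05) and Myoz2 rose by 1.11 ± 0.09 (adjusted p = 7.81e-07). Tpm3 rose by 0.26 ± 0.07 (adjusted p = 0.00478) and Tnnc1 fell by 0.22 on the log2 scale (SE 0.09, adjusted p = 0.0433). Myh7 was at -0.08 ± 0.10 in that fit (adjusted p = 0.51). Without overlap between libraries were Myl3, lower, and Tpm3 and Myoz2, higher, beside 29.8% and 36.3% of all genes. Scaled to the 18 fibre genes, the median of all genes in this comparison went from 0.048 to 0.561.

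For corrected against delEx44 at 18 months, leaving out corrected replicate 1 called 0 of the 10 genes and 36% of all genes, and moved Myh7 from -0.28 ± 1.34 to 0.30 ± 0.69 (adjusted p = 0.765). Leaving out corrected replicate 2, the highest library, called Tnni1, Tnnc1, Tpm3 and Myoz2 lower, with adjusted p from 0.00222 to 0.0346, while 36.3% of all genes were called in that fit. Which genes passed thus turned on which corrected library was kept. Against WT, leaving out corrected replicate 2 called Tnni1, Tnnc1 and Tpm3 lower, at log2 fold changes of -1.88, -2.54 and -0.97, with 19.6% of all genes called.

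The comparison of run mice of 8 weeks with sedentary mice of 4 weeks asks how the genes differ with running and age together. In WT, 27.6% of all genes were called, 13.4% as higher, and 2 of the 10 slow genes were: Tnni1 by 2.41 ± 0.71 (adjusted p = 0.0309) and Tpm3 by 0.89 ± 0.27 (adjusted p = 0.0327). A further 6 had an unadjusted p under 0.05, and Myh7 was at 2.23 ± 0.76 (adjusted p = 0.0555). All 10 estimates were above 0, with a median of 1.69 beside 0.00 over all genes, and the libraries did not overlap for 9 of the 10, against 26% of all genes without overlap and higher. DESeq2, with 30.8% of all genes called, called 7 of the 10, adding Myh7, Myl2, Myl3, Tnnc1 and Csrp3 to the same 2. The low WT library of 4 weeks enters this contrast: without it, Myh7 (1.73 ± 0.55, adjusted p = 0.0485) and Myl3 (1.56 ± 0.41, adjusted p = 0.0224) were called and Tnni1 (adjusted p = 0.0595) and Tpm3 (adjusted p = 0.0699) were not, with 24.3% of all genes called. Without WT replicate 1 at 4 weeks, 5 were called (Myh7, Tnni1, Tnnc1, Tpm3 and Csrp3). No share of all genes stands beside that count, so it is not read as a result about the 10 genes. Without WT replicate 2 at 4 weeks, or without either run WT library, 0 of the 10 were called.

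In delEx44 the same contrast called Myh7 by 2.20 ± 0.77 (adjusted p = 0.0492) and Myl3 by 2.40 ± 0.79 (adjusted p = 0.0394), where 35.7% of all genes were called, 16.4% as higher. Tnni1 (-0.51 ± 0.69, adjusted p = 0.61), Tnnc1 (0.21 ± 0.76, adjusted p = 0.853) and Tnnt1 (0.36 ± 0.63, adjusted p = 0.699) were not. In 4 of the 10 (Myh7, Myl2, Myl3 and Csrp3) both run libraries were above every 4-week library, beside 26.1% of all genes. Both calls were lost when any of the 5 libraries was left out, and when the libraries were scaled to the 18 fibre genes. In corrected muscle 0 of the 10 were called, 4 had an unadjusted p under 0.05 and DESeq2 called Csrp3 (1.24, adjusted p = 0.0223), with 25.8% of all genes called in edgeR and 28.4% in DESeq2. There Myl3 was at 1.89 ± 0.77 (adjusted p = 0.101) and Csrp3 at 1.23 ± 0.42 (adjusted p = 0.0552), and 8 of the 10 had every run library above every 4-week library, beside 27.8% of all genes. Without corrected replicate 3 at 4 weeks, Csrp3 (1.62, adjusted p = 0.0238) and Ankrd2 (1.42, adjusted p = 0.0494) were called, a count with no share of all genes beside it. The 3 contrasts do not share libraries, and their difference was called for 0 of the 10 genes in edgeR and in DESeq2: the interaction with running called 0.879% of all genes for delEx44 minus WT and 1.42% for corrected minus delEx44. The interaction of genotype with age, 18 months against 4 weeks, called 0 of the 10 in either tool as well, with 10.9% and 15.9% of all genes called. Unadjusted p was under 0.05 for 1 gene in 3 of these 4 contrasts. The smallest p-values of the age contrasts were those of Tnni1 for delEx44 minus WT (-2.60 ± 1.099, adjusted p = 0.157) and Myoz2 for corrected minus delEx44 (-1.76 ± 0.78, adjusted p = 0.146), which was called without corrected replicate 2 (-2.67, adjusted p = 0.019).

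Ratios within a library do not depend on the scaling between libraries. Counts of Tnni1 relative to those of Myh7 gave log2 ratios of -2.30, -2.23 and -1.41 in WT at 4 weeks, 2.34, 0.70 and 1.60 in delEx44, and the corrected libraries returned -1.91, -2.03 and -2.25. The delEx44 libraries were the only group of that stage with more Tnni1 than Myh7 counts, and WT replicate 3, low in both genes, had the highest ratio of the WT libraries, still below 0. The mean log2 ratio in delEx44 exceeded that in WT by 3.53 for Tnni1, 1.60 for Tnnt1 and 1.97 for Tnnc1, each without overlap, while 3.76% of all genes had a ratio to Myh7 without overlap and higher. That share depends on the low Myh7 of WT replicate 3 (10.9 CPM, against 116 and 64.5 CPM in the other WT libraries). Any gene not low there had a raised WT ratio, so the share is no even background for genes low together with Myh7. The ratio of Myl2 to Myh7 overlapped between delEx44 and WT (difference 0.07), as did that of Myl3 (-0.33). In corrected against delEx44 muscle the ratio was lower without overlap for the 3 troponin genes and for Tpm3, Myoz2, Csrp3 and Ankrd2, and 79.8% of all genes behaved likewise, Myh7 being higher in every corrected library.

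After running, the log2 ratio of Tnni1 to Myh7 was -1.93 and -2.18 in the WT libraries, against -0.99 and -1.08 in those of delEx44, with the corrected libraries between them at -1.63 and -1.58. These groups did not overlap, though 85.5% of all genes had a higher ratio to Myh7 in delEx44 than in WT there. At 18 months it was -2.59, -2.72 and -2.62 in WT and -2.32, -2.41 and -2.27 in delEx44, and 31.5% of all genes were without overlap and higher. The largest ratio differences of delEx44 against WT at 18 months were those of Myoz2 (1.18 higher) and Myl3 (-1.04), each without overlap, with 17.8% of all genes lower without overlap. Myoz2 to Myh7 was -1.06, -1.28 and -0.86 in WT against 0.11, 0.01 and 0.22 in delEx44. In corrected replicate 1 at 18 months Tnni1 to Myh7 was 2.36 and Tnnc1 to Myh7 1.65, against -2.77 and -2.24 in replicate 2, so the troponin genes were reduced less there than Myh7 was.

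**Figure D3:**
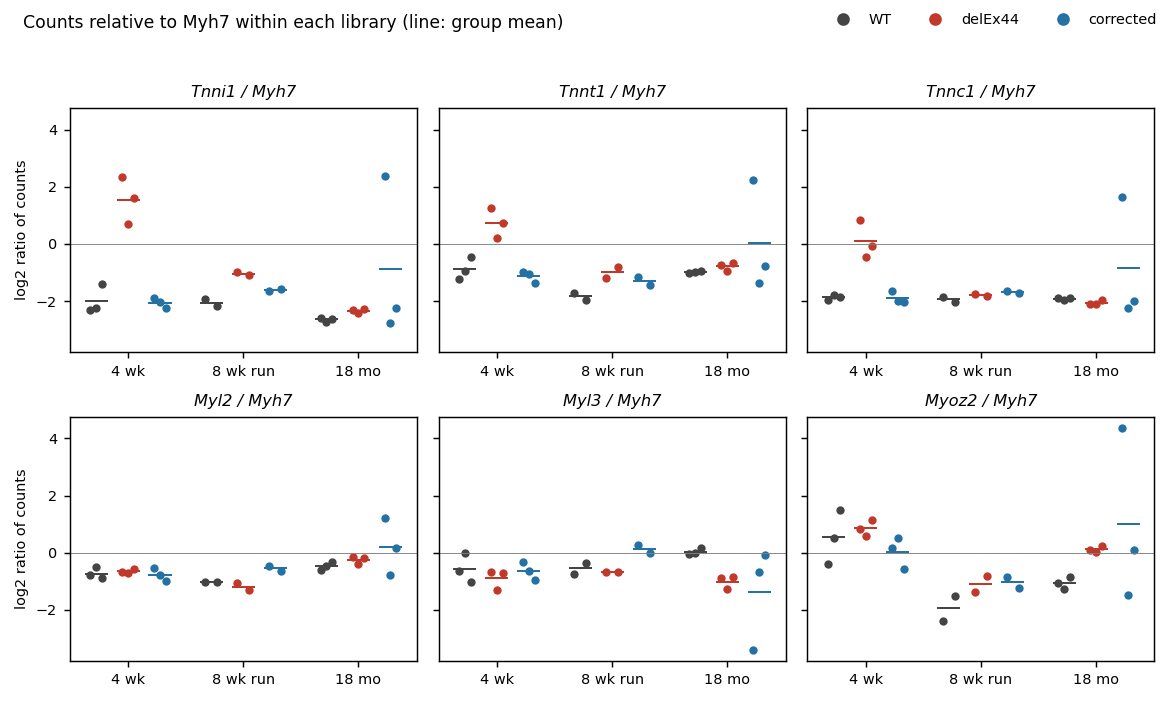
Log2 ratio of counts of 6 genes to those of Myh7 in each library, by stage and genotype; each point is a library and each line a group mean. The delEx44 libraries at 4 weeks lie above 0 for Tnni1, and corrected replicate 1 at 18 months lies above 0 for Tnni1 and Tnnc1.

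Set against the other adult myosin heavy chains, Myh7 was a small share of the counts of Myh7, Myh2, Myh1 and Myh4 in every library. Its share averaged 0.0985% ± 0.0764 (SD, n = 3) in WT, 0.107% ± 0.0193 in delEx44 and 0.136% ± 0.0707 in corrected muscle at 4 weeks. At 18 months it averaged 0.307% ± 0.0530 in WT and 0.759% ± 0.174 in delEx44, with libraries from 0.2461% to 0.3445% and from 0.6456% to 0.9592%. The delEx44 libraries of 18 months thus lay above the WT libraries, by 0.452 percentage points, although their Myh7 levels in CPM overlapped. An exact two-sided permutation test gave p = 0.1, the smallest that 3 against 3 libraries allow. Corrected against delEx44 gave -0.500 points with p = 0.2 by the same exact permutation test, and the exact permutation p-values at 4 weeks were 0.6 to 0.9. Corrected libraries of 18 months were at 0.001398% (95% exact Clopper-Pearson interval 0.0008653% to 0.002137%, covering counting error only), 0.6645% and 0.109%. At 18 months the denominator of the share was 737310 to 871653 counts in the delEx44 libraries and 1443010 to 1794312 in WT. Myh7 itself had 5282 to 7072 counts in delEx44 and 3551 to 6113 in WT. Myh4, the fastest heavy chain, was the denominator's largest part and was at 82.9% ± 0.527 in WT, 60.6% ± 5.11 in delEx44 and 87.8% ± 3.26 in corrected muscle. Myh1, Myh2 and Myh4 are near-identical in sequence, so the split among them is uncertain.

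**Figure D4:**
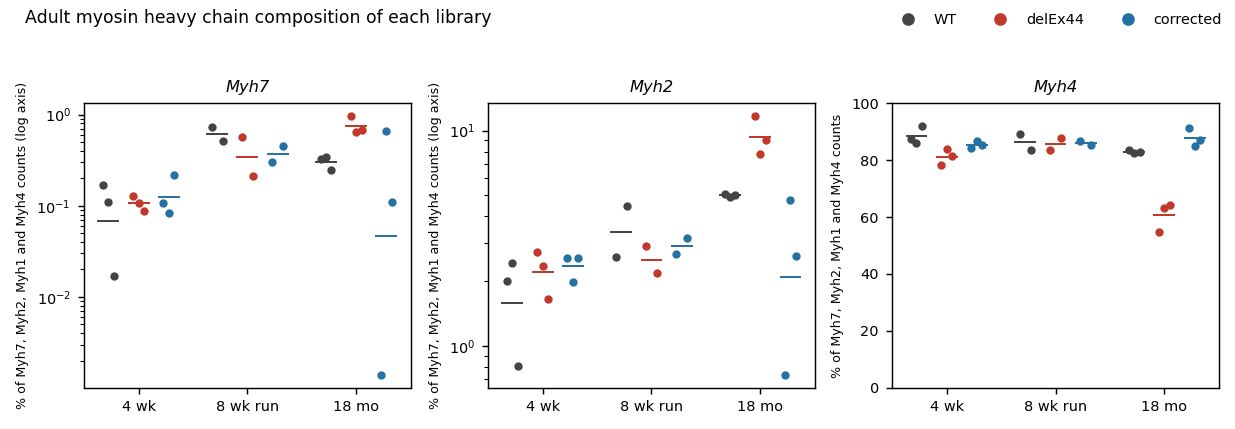
Share of Myh7, Myh2 and Myh4 in the counts of Myh7, Myh2, Myh1 and Myh4, in percent, for each library by stage and genotype; each point is a library and each line the group mean, geometric on the log axes of Myh7 and Myh2. The delEx44 libraries at 18 months lie above the WT libraries for Myh7 and below them for Myh4.

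Within groups the SD of log2 CPM ranged from 0.334 for Tpm3 to 1.08 for Myl3 over the 15 young libraries, where the median of all tested genes was 0.145. Over the 9 libraries of 18 months it was 2.62 for Myh7 and 3.29 for Myl3. The low level in corrected replicate 1 was known when the genes were chosen, so that spread is given as a description only. Without corrected replicate 1, Myh7 was at 0.884, with 1.31% of genes above it. In the 6 WT and delEx44 libraries of 18 months the 10 genes ranged from 0.072 for Tpm3 to 0.387 for Csrp3, and Tpm3 alone lay below the median of 0.124 over all genes. Without WT replicate 3 at 4 weeks the young libraries gave 0.557 for Myh7 and 0.657 for Tnni1, with 4.9% and 2.58% of genes above them.

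After removing the group means, all pairs of slow genes had a median Pearson r of 0.872 (0.463 to 0.994) over the 15 young libraries and 0.965 (0.809 to 0.998) over the 9 libraries of 18 months. The libraries share their depth and scaling for all pairs, so r describes these libraries only. Without WT replicate 3 at 4 weeks the median was 0.743 and the lowest r 0.008, and without corrected replicate 1 at 18 months they were 0.972 and 0.152. The values without corrected replicate 1 rest mainly on the gap between corrected replicates 2 and 3. The within-group SD of Myh7 was 0.884 with that pair and 0.166 in the WT and delEx44 libraries alone. Without the 2 libraries whose Myh7 deviated most, WT replicates 1 and 3 at 4 weeks, the median r of the young libraries was 0.731 and the lowest -0.012. The same at 18 months, without corrected replicates 1 and 2, gave a median of 0.519 and a range of -0.506 to 0.99, with 11 of 45 pairs below 0. In both cases the group means still included the 2 libraries left out. The deviation of corrected replicate 3 was thus set by replicates 1 and 2, so these values cannot show on which libraries the high r rested.

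Among 9596 other named genes with at least 5 CPM on average in both tables, 8 followed the mean of the slow genes most closely in both, by the smaller of the r over 15 and over 9 libraries. They were Rgs4 (0.925), a regulator of G protein signalling, Bdh1 (0.914), an enzyme of ketone body metabolism, and Atp2a2 (0.906), the calcium pump of slow fibres and heart. Smtnl1 (0.876), Pdlim1 (0.867), the oxygen-binding protein gene Mb (0.863), Ciapin1 (0.855) and Fndc5 (0.851) followed. These r rested in part on the low libraries: over 14 libraries without WT replicate 3 at 4 weeks they were 0.566 to 0.877. Over 8 libraries without corrected replicate 1 at 18 months, Atp2a2 (0.993), Mb (0.99) and Bdh1 (0.939) had the highest r and Smtnl1 (0.092), Ciapin1 (0.193) and Pdlim1 (0.341) the lowest. In that set the slow genes differed most between corrected replicates 2 and 3, with Myh7 at 406 and 60.1 CPM. The r over 8 libraries thus mainly restate how each gene differed between that pair. Atp2a2 was at 590.1 and 233.5 CPM there, and Smtnl1 at 85.33 and 82.81 CPM. Levels between groups differed from those of Myh7: Atp2a2 averaged 377 ± 20.8 CPM (SD, n = 3) in WT and 610.0 ± 62.1 CPM in delEx44 at 18 months, and Mb 3917 ± 137 CPM and 2624 ± 119 CPM.

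**Figure D5:**
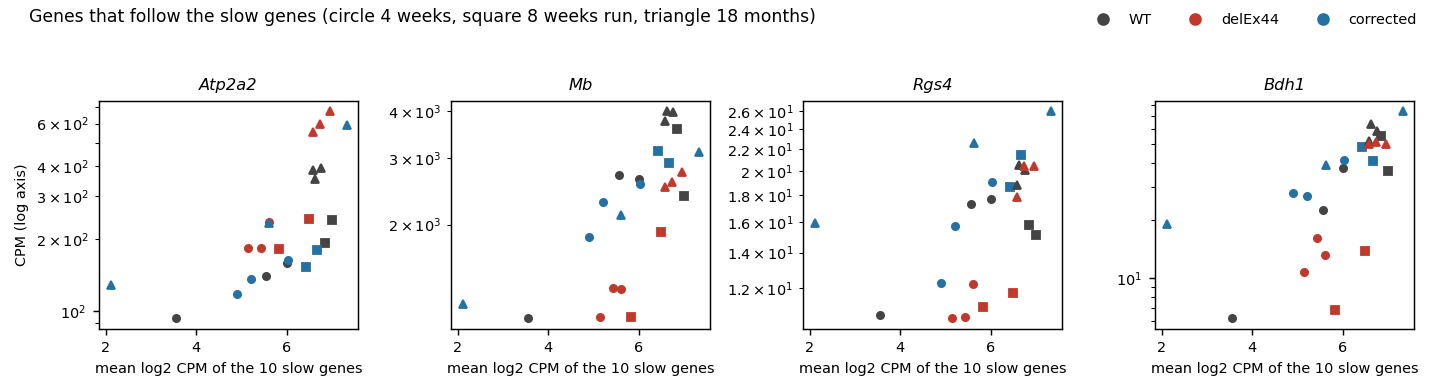
CPM on a log axis of Atp2a2, Mb, Rgs4 and Bdh1 against the mean log2 CPM of the 10 slow genes, with each library as a point, coloured by genotype and marked by stage; libraries of 18 months were scaled apart from the others. The lowest points on the horizontal axis are corrected replicate 1 at 18 months and WT replicate 3 at 4 weeks.

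The fast counterparts of the slow genes, 11 genes such as Myh4 and Tnni2, form the matching sarcomere of fast fibres. At 4 weeks 9 of 11 were called lower in delEx44 than in WT, with a median log2 fold change of -0.88, where 25% of all genes were called lower. Myh4 was at -1.26 ± 0.15 (adjusted p = 1.87e-05), Tnnt3 at -0.99 ± 0.11 (adjusted p = 1.13e-05), Tnnc2 at -0.88 ± 0.10 (adjusted p = 1.29e-05) and Tnni2, the fast form of Tnni1, at -0.88 ± 0.11 (adjusted p = 2.54e-05). All 11 were called higher in corrected than in delEx44 muscle, beside 22.1% of all genes, and 2 higher and 2 lower when scaled to the 18 fibre genes, where 79.6% of all genes were called. Without WT replicate 3, all 11 were called lower in delEx44 than in WT. On the scale of the 18 fibre genes the decrease at 4 weeks was left for Myh4 (-0.44), Tnnt3 (-0.17) and Actn3 (-0.37), 3 others were called higher, and Tnni2 was at -0.05. At 18 months 7 of 11 were called lower in delEx44, beside 23.8% of all genes, Myh4 by -1.78 ± 0.14 (adjusted p = 1.42e-05), and on the other scale 7 were called lower and 3 higher, with 72.6% of all genes called. The median of the 10 slow genes was -0.17 at 4 weeks and 0.17 at 18 months, with a median SE of 0.625 and 0.865. Without WT replicate 3, 5 of the 10 slow genes were called lower and 1 higher in delEx44 at 4 weeks, with 48.5% of all genes called. The difference between slow and fast genes was not tested.

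Of 12 further genes typical of slow fibres, 4 were called higher in delEx44 than in WT at 4 weeks and 0 lower: Sln (3.14 ± 0.40, adjusted p = 9.02e-05), which encodes sarcolipin, an inhibitor of the calcium pump, Myl6b (1.70 ± 0.28), Atp2a2 (0.61 ± 0.20) and Casq2 (0.98 ± 0.37). Of all genes, 25.2% were called higher there. Without WT replicate 3 the list had 2 called higher and 3 lower, with 48.5% of all genes called in that fit. At 18 months 5 of the 12 were called higher, beside 28.8% of all genes, led by Sln at 5.51 ± 0.22 (adjusted p = 2.24e-06), with Smpx (0.63), Pln (1.64) and Myl6b (0.55) next by p. Sln averaged 3.68 CPM in WT, 167 CPM in delEx44 and 5.50 CPM in corrected muscle at 18 months. All 5 were called lower again in corrected muscle, beside 21.4% of all genes. In WT, where 13.4% of all genes were called higher, run against 4 weeks called Myh7b (1.29 ± 0.25), Pln (0.71 ± 0.21) and Atp2a2 (0.72 ± 0.22) higher. This count of 3 became 1 higher and 1 lower without WT replicate 3 at 4 weeks, with 24.3% of all genes called. Sln, Myl6b and Pln were higher in delEx44 at 18 months on the scale of the 18 fibre genes too.

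Regulators of fibre type, 22 genes, were called in delEx44 against WT at 4 weeks as 1 higher and 13 lower, beside 25.2% and 25% of all genes. Sox6, a repressor of slow genes in fast fibres, was lowest in p (-0.83 ± 0.07, adjusted p = 1.87e-06), with Tbx15 (-0.60 ± 0.09), which favours the fast programme. Tead4, a factor that binds the M-CAT box, was the 1 called higher (1.15 ± 0.16, adjusted p = 7.71e-05). On the scale of the 18 fibre genes 17 were called higher and 0 lower, with 84.8% of all genes called. That scale raises all genes of the comparison together, so the split turns with it. There Sox6 was at 0.00 (adjusted p = 0.992), Tbx15 at 0.24 and Tead4 at 2.00. At 18 months 1 was called higher and 10 lower, beside 28.8% and 23.8% of all genes, and Sox6 (-0.92 ± 0.09, adjusted p = 4.65e-05) and Eya1 (-1.30 ± 0.10, adjusted p = 1.45e-05) were called lower on both scales. Sox6 averaged 246 CPM in WT, 130.3 CPM in delEx44 and 257 CPM in corrected muscle at 18 months.

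Partners of Myoz2, Csrp3 and Ankrd2 at the Z-disc and in the response to stretch, 15 genes, were called as 2 higher and 8 lower in delEx44 at 4 weeks, beside 25.2% and 25% of all genes, and as 4 higher and 8 lower at 18 months, beside 28.8% and 23.8%. On the scale of the 18 fibre genes the counts were 8 higher and 2 lower at either age. Ankrd1, the stress-induced relative of Ankrd2, was at 30.5 to 41.7 CPM in WT, 341 to 409 CPM in delEx44 and 59.4 to 129.8 CPM in corrected muscle at 18 months. Its log2 fold change there was 3.41 ± 0.29 (adjusted p = 7.28e-05), called on both scales, whereas Ankrd2 was at -0.16 ± 0.59 (adjusted p = 0.839). The difference between these relatives was not tested.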

How the data were processed

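Quadriceps polyA RNA was sequenced from 24 libraries (miRNeasy extraction, TruSeq RNA libraries, per the labels' protocols). The deposited values are raw read counts per gene symbol, made by the authors on mm10. Per the submitters' processing notes their tools were STAR 2.7.2b, Bowtie2 2.3.4.3, HTSeq, SAMtools 1.9, Trim Galore and edgeR. The aligner behind the counts, the annotation and the strand setting were not given in the sources used here. The 5 records that name no gene held 27.36% to 34.24% of the young and 42.23% to 48.26% of the 18-month libraries' records and were left out.

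The 24062 genes were filtered with filterByExpr and scaled by TMM in each table, and group means were compared with edgeR 4.0.16's quasi-likelihood test (robust, R 4.3.3). Adjustment was by Benjamini-Hochberg over all 15013 (young), 14337 (18 months) or 14937 (sedentary stages joined, for the age contrasts) genes tested, with a threshold of 0.05. Log2 CPM used a prior count of 2. Groups came from the labels. The 4-week replicate numbers, given in accession order, only name the libraries, and 2 WT columns at 18 months were assigned to their group alone. Lowest chi-square per gene between replicates was 10.2, so no library was taken as deposited more than once.

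The 10 genes and the lists were chosen with earlier results of these data known. From each list at most 4 genes with the smallest p were named, and the fast counterpart of each slow gene. Genes of like pattern needed a mean of at least 5 CPM in both tables, and the 8 with the highest smaller r were named. Alternatives were DESeq2 1.42.0, DESeq2's size factors, scaling to 18 genes of all fibres, no filter, the compared groups alone, each library left out, and a replicate block where labels share numbers. The ratios to Myh7 and the values without the low libraries were chosen after seeing the data. The test was checked on simulated counts with the same small spread for all genes. The slow genes spread more than that over the libraries of either table, so the check does not cover them. A gene that the naming rule covers is not reported here.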

Additional observations from a re-analysis of the deposited data

How the results depend on the processing

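Tnni1 kept its direction and its calls between genotypes at 4 weeks under every alternative run. Counts of the 10 genes called moved as follows, and are to be read beside the share of all genes called. Scaled to the 18 genes of all fibres, that share at 4 weeks was 84.8% for delEx44 against WT and 79.6% for corrected against delEx44. For the other contrasts on that scale, interactions among them, the counts over all genes are given below. Scaled to the 18 genes of all fibres, delEx44 against WT at 4 weeks called 5, with Csrp3 turning from -0.00 to 0.83 (0.8326, adjusted p = 0.048), corrected against delEx44 called 3 (Tnni1, Tpm3 and Csrp3, lower), corrected against delEx44 at 18 months 1 (Myoz2, -1.89), run against 4 weeks 0 in delEx44 and 1 in corrected muscle (Csrp3), and the interactions with running 2 (Tnni1 and Tpm3, delEx44 minus WT) and 1 (Tnni1, corrected minus delEx44), and that with age 1 (Tnni1, delEx44 minus WT). In fits of the compared groups alone, corrected against delEx44 called 3 at 4 weeks (Myl2 and Myl3 higher, Tnni1 lower) and 1 after running (Ankrd2). For delEx44 against WT such fits called 1 after running (Ankrd2) and 4 at 18 months. For run against 4 weeks they called 0 in WT, 4 in delEx44 and 1 in corrected muscle (Myl3). No share of all genes stands beside the counts for corrected against delEx44 at 4 weeks and for run against 4 weeks. Those counts are not read as a result about the 10 genes. DESeq2 called 7 in WT and 1 in corrected muscle (Csrp3) for run against 4 weeks, and with no filter this contrast called 1 in WT and 0 in delEx44.

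Leaving out 1 library gave 1 to 6 for delEx44 against WT at 4 weeks (6 without WT replicate 3), 0 to 4 for corrected against delEx44 at 18 months (4 without corrected replicate 2) and 0 to 3 for corrected against WT at 18 months. It gave 0 to 5 for run against 4 weeks in WT (5 without WT replicate 1 at 4 weeks), 0 in delEx44, 0 to 2 in corrected muscle (2 without corrected replicate 3 at 4 weeks) and 0 to 1 for the age interaction of corrected minus delEx44 (Myoz2, without corrected replicate 2). The median r among the young libraries was 0.743 without WT replicate 3. The cause of these changes was not tested. For most fits with a library left out, no share of all genes stands beside the count. Those counts are therefore not read as a result about the 10 genes. With the replicate block, possible for corrected against delEx44 at 18 months, 0 of the 10 and 4397 genes were called against 5880. Libraries with the same number did not deviate together there (r -0.031, 0.025 and -0.049), so they share only a number. Elsewhere the compared groups share too few label numbers.

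Over all genes, the scaling to fibre genes called 12728 against 7541 genes and 11954 against 6945 (4 weeks, delEx44 against WT and corrected against delEx44), 2539 against 4370 and 1624 against 3485 (run, the same order), and 8869 against 5880 and 345 against 683 (18 months, corrected against delEx44 and against WT). For run against 4 weeks it called 10302 against 5355 in delEx44 and 2209 against 3878 in corrected muscle, and for the interactions 9791 against 132, 8762 against 213, 6872 against 1632 and 5070 against 2370. Fits of the compared groups alone called 2330 against 4370, 1256 against 3485, 16 against 683 and 41 against 132 (delEx44 against WT run, corrected against delEx44 run, corrected against WT at 18 months, running interaction of delEx44 minus WT). DESeq2 called 220 against 0, 82 against 3 and 1638 against 683 for corrected against WT at the 3 stages, and 718 against 132 and 864 against 213 for the running interactions. All 48 alternative values of the Myh7 share moved by less than the spread between replicates. Where 1 of 3 libraries was left out, the shift could not exceed that limit, so these values do not test the share. A few counts, as for Myl3 in corrected replicate 1 at 18 months, limit its fold change and ratio.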
